A study of Homo sapiens with 32 samples.

Results

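Homeobox genes encode transcription factors that bind DNA through a shared fold, the homeodomain, and the genes described here were taken by symbol. The choice was made with earlier results of these data known. The symbols taken were those of the HOX clusters and of the PBX, PKNOX, TGIF, IRX, LHX, SIX-type, DLX, OTX, PITX, POU, ONECUT, CUX, ZEB, ZHX, SATB, ADNP, HMBOX, NKX and PAX families, with 1 antisense gene left out. They matched 36 of the 7978 genes in the deposited table and 130 of its 26104 merged peaks, which are the stretches of transcript where m6A antibody signal had been found. Below, homeobox genes means these 36. Others with counts, such as PDX1, MEIS1, MEIS2 and CDX2, lie outside the families taken and serve only as markers or context. The 36 genes were grouped by class. The TALE class held 10 genes (IRX1, IRX2, IRX3, IRX5, PBX2, PBX3, PKNOX1, PKNOX2, TGIF2 and the readthrough TGIF2-RAB5IF). The zinc-finger and other class held 7 genes (ADNP, ADNP2, ZEB1, ZHX1, ZHX2, ZHX3 and the readthrough ZHX1-C8orf76). Among the POU class were POU2F1, POU2F2, POU3F1, POU3F2 and POU4F1, and among the paired-type class OTX1, OTX2 and PITX1. The cut class held 4 genes (CUX1, CUX2, ONECUT1, ONECUT2), the SIX-type class 3 (SIX3, SIX4, SIX5) and the LIM class 1 (LHX5).

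The human embryonic stem cell lines H1 and MEL1 were sampled undifferentiated (S0) and after stepwise culture toward insulin-producing cells, with S3 standing for posterior foregut, S4 for progenitors of the pancreas and S6 for β-like cells not yet mature. mRNA of each culture was fragmented, a portion was kept as input, and the remainder was pulled down with an antibody to N6-methyladenosine (m6A), giving the IP library. Every line and stage had 2 replicates, so the table held 16 input and 16 IP libraries. All groups were mixed cultures of an established line without a treatment arm, and no sorting is given. Input libraries held 2652830 to 6879256 reads in merged peaks (median 4318760), and IP libraries 2378881 to 15674899 (median 13100407). Homeobox genes took 0.136% to 0.341% of the input reads and 0.415% to 0.72% of the IP reads. A gene's input level is the sum over its peaks in counts scaled to normalised library size (CPM), so a difference in level between genes also reflects how many peaks each holds.

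Homeodomain factors pattern the embryo. HOX genes are laid out in clusters and mark position along the body axis, and TALE proteins such as PBX, PKNOX and the MEIS factors bind DNA together with them. ONECUT and LIM factors act in foregut, liver and pancreas, while SIX-type, OTX, IRX and several POU factors are known best from forebrain, eye and sensory organs. m6A is a methyl mark on mRNA adenosines that is found mainly near stop codons and in long internal exons. Retinoic acid is in the culture medium of the S3 and S4 steps and early on the way from S4 to S6, and is then left out.

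Markers set the frame for the stages. Undifferentiated markers with counts numbered 9 of 12, and 8 of these fell from S0 to S3 (13.8% of all genes did), with none higher. All 8 posterior foregut markers rose at S3, as did 15.0% of all genes, summing to 15.2 and 15.5 in S0, 1090 and 1050 in S3, 591 and 630 in S4, 480 and 465 in S6 CPM in H1. In MEL1 the same sum was 15.8 and 15.9 in S0, 3040 and 2990 in S3, 1610 and 1590 in S4, 785 and 816 in S6, and HNF4A, a hepatic and gut endoderm factor, was its most abundant gene over all libraries together. The rises of CXCR4 and SOX17 at S3 came mainly from H1. In MEL1 CXCR4 went from 2.67 and 1.52 in S0 to 1.25 and 2.48 in S3. SOX17 went there from 0.411 and 0 to 0.5 and 0.903. Both line differences passed (-3.64, edgeR adjusted p = 0.00152, and -5.94, edgeR adjusted p = 0.0156). Pancreatic progenitor markers with counts numbered 5 of 8 and included ONECUT1, a member of the homeobox genes described here. PDX1, the pancreatic master regulator, was at 36.5 and 29.3 at S3 and 3.02 and 2.21 at S6 in H1, against 31.8 and 25.5 and 67.2 and 57.7 in MEL1. Among endocrine markers 2 of 13 had counts, CHGA and GLIS3. CHGA, a granule protein, was at 810 and 781 in H1 S6 and 721 and 727 in MEL1 S6.

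Other cell types' markers moved with line and stage. Hepatic markers (4 of 7 had counts, APOA1 the most abundant) summed to 3.86 and 1.59 in S0, 443 and 451 in S3, 200 and 146 in S4, 93.6 and 84 in S6 CPM in H1. In MEL1 they summed to 22 and 18.3 in S0, 32500 and 28500 in S3, 62600 and 65700 in S4, 2970 and 2880 in S6. Both MEL1 S3 and both MEL1 S4 libraries were thus far above every H1 library, with AFP at 22500 and 26700 in MEL1 S4. Neuronal markers (5 of 12, NEFM the most abundant) summed to 114 and 111 in S0, 84.5 and 93.9 in S3, 274 and 280 in S4, 3640 and 3510 in S6 in H1. They summed to 134 and 72.7 in S0, 0.25 and 0.226 in S3, 106 and 88.5 in S4, 520 and 541 in S6 in MEL1, where STMN2, NEFL, NEFM and SOX1 were at 0 in both S3 libraries. Mesenchymal markers (7 of 12, COL1A1 the most abundant) summed to 350 and 342 in S0, 152 and 160 in S3, 111 and 142 in S4, 314 and 323 in S6 in H1 and to 363 and 372 in S0, 164 and 149 in S3, 914 and 836 in S4, 323 and 321 in S6 in MEL1. Intestinal markers (2 of 6, CDX2 the most abundant) summed to 0.483 and 2.27 in S0, 18.7 and 20 in S3, 18 and 54.3 in S4, 85.6 and 86 in S6 in H1 and to 6.37 and 3.48 in S0, 480 and 434 in S3, 190 and 152 in S4, 496 and 444 in S6 in MEL1. These markers move with several homeobox genes below, and their part in those results was not tested. In bulk RNA, fewer cells of a type and less RNA per cell cannot be told apart.

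Some libraries stood apart. In the H1 S4 IP libraries 13.8% and 8.77% of all merged peaks had no read, against 0.693% to 1.9% in the other H1 IP libraries of like depth. The MEL1 S4 IP libraries were the shallowest, with 2483580 and 2378881 reads, and left 23.7% and 21.4% of peaks without a read. Of the 130 homeobox peaks, 17 and 13 had no read in the H1 S4 IP libraries, and 36 and 20 in those of MEL1 S4. The other H1 IP libraries left 0 to 5 homeobox peaks without a read, and the other MEL1 IP libraries 16 to 27, with 5.86% to 14.4% of all peaks. Each S4 value of IP over input below rests on these S4 libraries. Mitochondrial genes took 26.4% to 27.5% of the input reads in H1 S0 and S3, 17.7% and 15.4% in H1 S4, and 11.6% and 11.8% in H1 S6. In MEL1 they took 41% and 32.5% at S0 and 12.9% to 16.5% at the later stages. The part of this in the changes from S0 was not tested.

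The fits set one stage against another over both lines, with cell line as a term. A gene was called higher or lower when the quasi-likelihood test of edgeR gave a p under 0.1 after adjustment by Benjamini and Hochberg's method (Benjamini-Hochberg) over all 7973 genes tested and the change was at least 2-fold. All 36 homeobox genes passed the filter on low counts. A pair is the later and the earlier library of the same line and replicate number. Each difference between lines was tested as MEL1 change minus H1 change in log2 and taken as passing at an adjusted p under 0.1. The p-values measure the spread between these samples, which the authors describe as independent and biological. That spread differed between groups. Relative to counting error (chi-square per degree of freedom), it was 1.89, 1.87, 6.5 and 1.67 in H1 input from S0 to S6. In MEL1 input it was 13.7, 5.67, 4.56 and 4.14, and in IP it was widest in MEL1 S0 (35). The fits shared an estimate of the spread over all libraries.

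**Figure D1:**
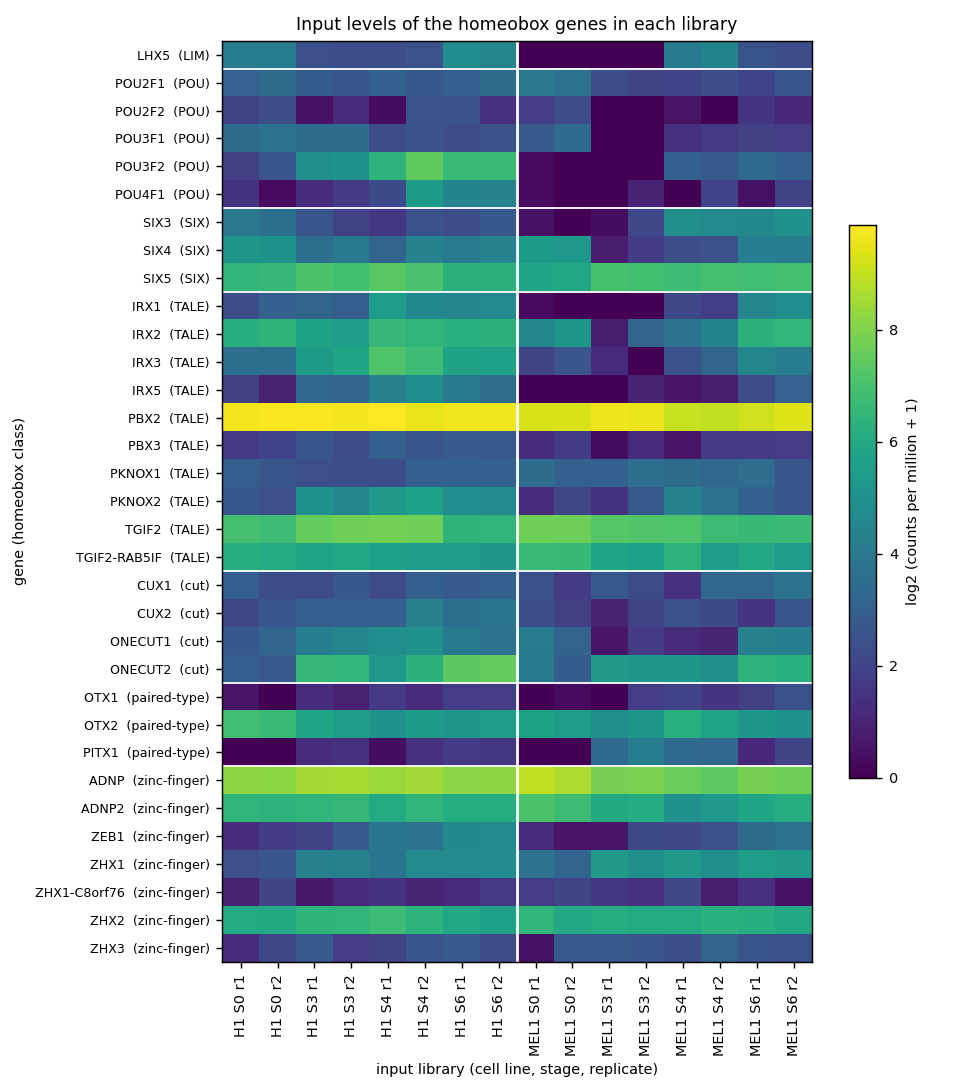
Input level of 33 homeobox genes in each of the 16 input libraries, as log2 of CPM plus 1, with genes grouped by class and a white line between H1 and MEL1. PITX1 stands at 10 and 17.1 CPM in the MEL1 S3 libraries and 1.38 and 1.65 in those of H1.

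From S0 to S3, the step into foregut, ONECUT2, ZHX1 and PITX1 rose in every pair, while SIX4 and POU2F1 fell. Of the 36 homeobox genes 10 rose, where 15.0% of all genes tested did, and 4 fell, where 13.8% of all genes did. The median log2 change was 0.10 over the homeobox genes and -0.02 over all genes. Among the risers were PITX1, ONECUT2, PKNOX2, POU3F2, ZHX1, ZEB1, OTX1 and IRX5, and the fallers were SIX4, POU2F1, POU2F2 and IRX2. The change differed between the lines for 15 of the 36, against 45.9% of all genes, with 12 of them lower in MEL1 than in H1 and 7 moving in opposite directions. How many of all genes moved in opposite directions was not counted. With RLE size factors, where 16 homeobox genes passed, 21.7% of all genes had a higher change in MEL1 and 24.1% a lower one.

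From S3 to S4, the step to pancreatic progenitors, POU3F2 alone was called. That made 1 gene higher of 36, beside 1.49% of all genes, and 0 lower, beside 0.351%. For the count of 0, edgeR gave 11 homeobox genes at an unadjusted p under 0.05 in either direction, beside 13.5% of all genes, and DESeq2 called 6 higher and 1 lower, beside 3.1% and 0.627%. Their median log2 change was 0.27 over the homeobox genes and 0.02 over all genes. The change differed between lines for 8 of 36 (14.1% of all genes), 7 of them higher in MEL1. With RLE size factors 9.06% of all genes had a higher change in MEL1 and 5.34% a lower one. The number called was 4 without H1 S4 replicate 1 (2.43% of all genes) and 2 without MEL1 S3 replicate 2 (1.28%).

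From S4 to S6, the step to β-like cells, ONECUT2 rose. It was the 1 gene higher of 36, beside 2.85% of all genes, and 1 was lower, beside 2.33%. The median log2 change was 0.09, and -0.03 over all genes. The lines differed for 16 of the 36 homeobox genes, beside 23.1% of all genes. Of these, 12 had the higher change in MEL1 and 12 moved in opposite directions. The number of all genes that moved in opposite directions was not counted. With RLE size factors, where 14 homeobox genes passed, 11.1% of all genes had a higher change in MEL1 and 11.8% a lower one.

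Over the whole course, S6 against S0, 13 of 36 homeobox genes rose, beside 17.5% of all genes, and 3 fell, beside 13.8%. ONECUT2, ZHX1, POU3F2 and ZEB1 had small adjusted p-values among those that rose. Also higher were PITX1, IRX1, IRX3, IRX5, PKNOX2, OTX1 and POU4F1, and those that fell were OTX2, POU3F1 and SIX4. The median log2 change was 0.77 over the homeobox genes and 0.03 over all genes. With PITX1, which was at 0 in input at S0, set to its lower limit the median was also 0.77, and at S3 it was also 0.10. The lines differed for 12 of 36 (36.3% of all genes), 7 of them higher in MEL1. With RLE size factors 18.8% of all genes had a higher change in MEL1 and 17.4% a lower one. The comparisons of S6 and of S3 with S0 share the S0 libraries.

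**Figure D2:**
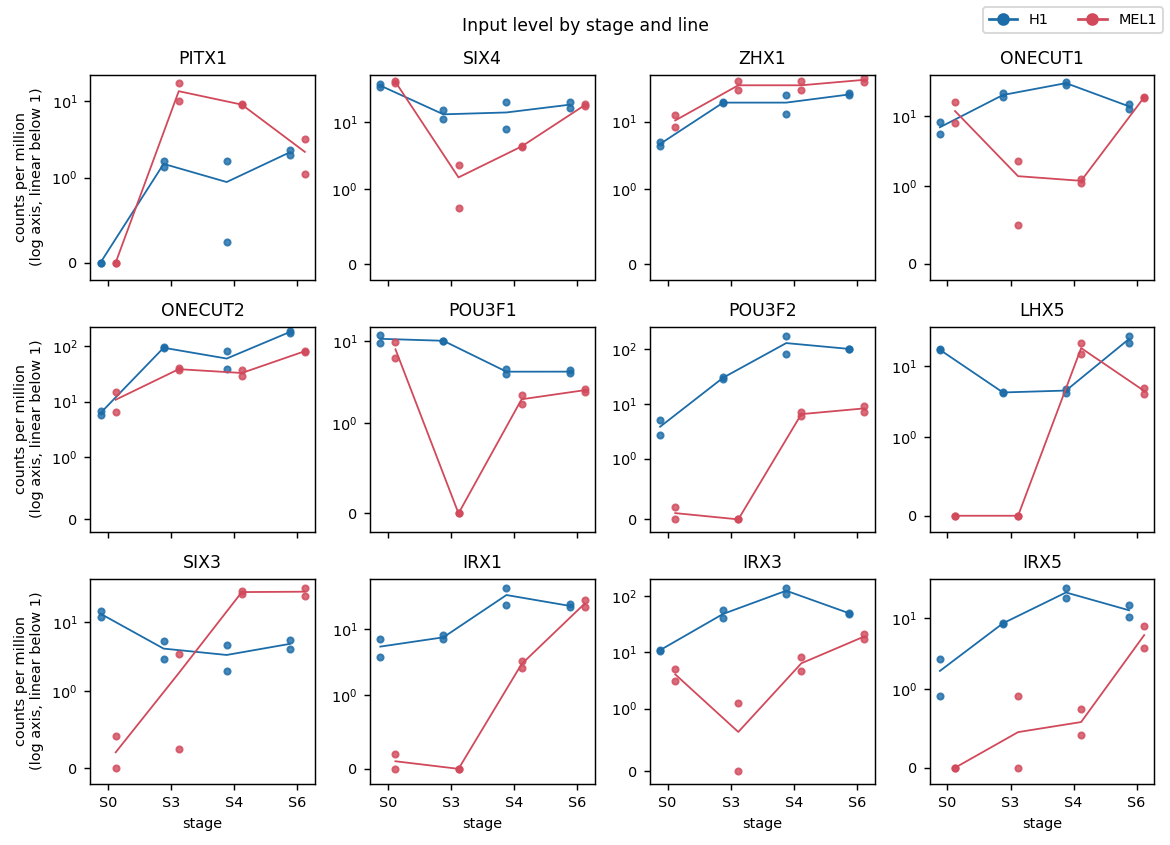
Input level in CPM (log axis, linear below 1) of 12 homeobox genes by stage, with a point for each library and lines through the mean of each cell line. POU3F1, POU3F2, LHX5 and IRX1 are at 0 in both MEL1 S3 libraries and above 0 in both H1 S3 libraries.

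PITX1, a paired-type factor of hindlimb and pituitary, had no input read at S0, while the S0 IP libraries held 1 and 9 in H1 and 6 and 0 in MEL1. PITX1 measured, in H1, 0 and 0 in S0, 1.38 and 1.65 in S3, 0.247 and 1.65 in S4, and 2.31 and 1.98 in S6. In the other line, MEL1, PITX1 measured 0 and 0 in S0, 10 and 17.1 in S3, 9.24 and 8.85 in S4, and 1.12 and 3.23 in S6. The MEL1 S3 and S4 libraries were above every H1 library, and H1 S4 replicate 1 was close to 0. Against the floor of 3 counts over the 4 S0 libraries, PITX1 was at least 42.8-fold higher at S3 (edgeR adjusted p = 0.00036, 4 of 4 pairs) and at least 12.9-fold higher at S6 (edgeR adjusted p = 0.00141, 4 of 4 pairs). Within lines the limit at S3 was 4.3-fold in H1 and 43.4-fold in MEL1, where replicate 2 held 76 of the 116 S3 reads, and at S6 6.16-fold and 6.72-fold. Leaving out MEL1 S6 replicate 1 moved the fitted S6 value from 6.86 to 7.56, a value that depends on the prior count. From S4 to S6 the change was lower in MEL1 than in H1 (-3.04 ± 0.99 SE, edgeR adjusted p = 0.0399).

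OTX1, a forebrain and sensory factor, was scarce throughout. In H1, OTX1 stood at 0.483 and 0 in S0, 1.38 and 0.824 in S3, 2.22 and 1.23 in S4, and 2.49 and 2.43 in S6. In MEL1, OTX1 stood at 0 and 0.218 in S0, 0 and 2.48 in S3, 2.94 and 1.84 in S4, and 2.61 and 4.44 in S6. S6 lay above S0 in every pair, while MEL1 S3 replicate 1 held no input read. Over the 4 libraries of each stage OTX1 had 3 reads at S0, 22 at S3 and 43 at S6. These give ratios to S0 of 7.19 at S3 (95% counting interval 2.16 to 37.5) and 16.8 at S6 (5.39 to 84.8). OTX1 was called at S3 (edgeR adjusted p = 0.0355, 3 of 4 pairs), a call lost without MEL1 S3 replicate 2, where the fitted log2 change moved from 2.62 to 1.99. Without H1 S0 replicate 1 it was 3.68. At S6 it was called as well (edgeR adjusted p = 0.00226, 4 of 4 pairs), with a fitted log2 change of 3.91, or 4.97 without H1 S0 replicate 1. OTX2, the early forebrain and epiblast factor, ranged from 29.5 to 114 CPM, highest in H1 S0. It fell from S0 to S6 (log2 change -1.04 ± 0.31 SE, edgeR adjusted p = 0.013, lower in 4 of 4 pairs). That call was lost without H1 S0 replicate 1 (-0.87), H1 S0 replicate 2 (-0.93) or H1 S6 replicate 1 (-0.97). The lines differed in it (0.87 ± 0.30 SE, edgeR adjusted p = 0.0336), with -1.42 in H1 and -0.55 in MEL1. OTX2 also differed between the lines from S3 to S4 (1.40 ± 0.30 SE, edgeR adjusted p = 0.00344) and from S4 to S6 (-1.10 ± 0.30 SE, edgeR adjusted p = 0.0146).

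ONECUT2, a cut-homeodomain factor of liver and pancreas, rose at S3 and again at S6. H1 libraries held ONECUT2 at 6.76 and 5.68 in S0, 93.2 and 91.3 in S3, 37.8 and 80.2 in S4, and 167 and 186 in S6. MEL1 libraries held ONECUT2 at 15 and 6.53 in S0, 39.5 and 36.6 in S3, 36.6 and 28.4 in S4, and 82.2 and 77.8 in S6. All S3, S4 and S6 libraries were above all S0 libraries, and at S6 both H1 libraries were above those of MEL1. It rose from S0 to S3 (log2 change 2.72 ± 0.40 SE, edgeR adjusted p = 7.73e-05, higher in 4 of 4 pairs) and by less in MEL1 (-2.08 ± 0.48 SE, edgeR adjusted p = 0.00174). Leaving out MEL1 S0 replicate 1 gave 3.35. ONECUT2 rose again from S4 to S6 (log2 change 1.45 ± 0.36 SE, edgeR adjusted p = 0.0282, higher in 4 of 4 pairs), a call lost without both MEL1 S4 input libraries (1.40), which were left out after seeing the data. Over the course it rose (log2 change 3.72 ± 0.41 SE, edgeR adjusted p = 4.96e-06, higher in 4 of 4 pairs), again by less in MEL1 (-1.94 ± 0.47 SE, edgeR adjusted p = 0.00405). That value was 4.35 without MEL1 S0 replicate 1.

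ONECUT1, its paralog and an activator of the pancreatic progenitor program, was not called in any comparison. ONECUT1 measured, in H1, 5.56 and 8.19 in S0, 18.3 and 21.4 in S3, 27.9 and 30.7 in S4, and 14.7 and 12.6 in S6. In the other line, MEL1, ONECUT1 measured 15.6 and 7.83 in S0, 0.5 and 2.26 in S3, 1.26 and 1.11 in S4, and 18.7 and 18.2 in S6. In H1 the S3 and S4 libraries were the highest, whereas in MEL1 the S3 and S4 libraries were the lowest and S6 was above S0. The lines differed from S0 to S3 (-4.55 ± 0.61 SE, edgeR adjusted p = 7.29e-06) and, in the other direction, from S4 to S6 (5.03 ± 0.66 SE, edgeR adjusted p = 1.46e-05). CUX1 ranged from 1.68 to 12.5 CPM and CUX2 from 1 to 18.7. Neither CUX1, which is broadly expressed, nor CUX2, known best from neurons, was called in any of the 4 comparisons, and neither differed between lines.

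POU3F2, a neural POU factor, was the one gene called from S3 to S4. In H1, POU3F2 stood at 2.66 and 5 in S0, 29.2 and 31.3 in S3, 82.7 and 177 in S4, and 101 and 102 in S6. In MEL1, POU3F2 stood at 0.206 and 0 in S0, 0 and 0 in S3, 7.14 and 5.9 in S4, and 9.34 and 7.26 in S6. H1 was above MEL1 at every stage, the H1 S4 replicates differed from each other, and MEL1 held no input read at S3. The pooled call from S0 to S3 (log2 change 2.62 ± 0.61 SE, edgeR adjusted p = 0.00341, higher in 2 of 4 pairs) came from H1, and MEL1 alone gave -2.01 with an adjusted p of 0.376. From S3 to S4 POU3F2 rose (log2 change 2.55 ± 0.50 SE, edgeR adjusted p = 0.0191, higher in 4 of 4 pairs). In MEL1 it was at least 18.2-fold higher at S4 than at S3. The test of the line difference, whose value depends on the prior count, gave 5.69 ± 1.53 SE, edgeR adjusted p = 0.0207, and it did not pass without MEL1 S3 replicate 2 (5.68). At S6 POU3F2 was above S0 (log2 change 5.14 ± 0.63 SE, edgeR adjusted p = 1.33e-05, higher in 4 of 4 pairs). Neuronal markers had low sums in the same MEL1 S3 libraries, and their part was not tested.

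POU3F1, an epiblast and neural POU factor, differed between the lines at S3. H1 libraries held POU3F1 at 9.66 and 11.8 in S0, 10.2 and 10.1 in S3, 3.95 and 4.53 in S4, and 4.08 and 4.41 in S6. MEL1 libraries held POU3F1 at 6.17 and 9.79 in S0, 0 and 0 in S3, 1.68 and 2.21 in S4, and 2.61 and 2.42 in S6. Both H1 S3 libraries were at the S0 level, while both MEL1 S3 libraries were at 0. In MEL1 POU3F1 was at least 22.3-fold lower at S3 than at S0. The line difference was -8.01 ± 1.12 SE, edgeR adjusted p = 1.45e-05, and from S3 to S4 7.33 ± 1.31 SE, edgeR adjusted p = 0.00082, both fitted values that depend on the prior count. From S0 to S6 POU3F1 fell (log2 change -1.63 ± 0.74 SE, edgeR adjusted p = 0.086, lower in 4 of 4 pairs). This call was lost when any of 6 libraries was left out, H1 S6 replicate 1 (-1.46) and replicate 2 (-1.51), MEL1 S0 replicate 1 (-1.60) and replicate 2 (-1.27), and MEL1 S6 replicate 1 (-1.81) and replicate 2 (-1.77). With a replicate block it was -1.61 and did not pass.

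POU4F1, a sensory neuron factor, was called at S6. POU4F1 measured, in H1, 1.69 and 0.227 in S0, 1.38 and 2.27 in S3, 3.7 and 40.7 in S4, and 21.1 and 20.1 in S6. In the other line, MEL1, POU4F1 measured 0.206 and 0 in S0, 0 and 0.903 in S3, 0 and 2.95 in S4, and 0.373 and 2.82 in S6. The H1 S4 replicates lay far apart, both H1 S6 libraries were high, and all MEL1 libraries were at 2.95 or lower. It rose from S0 to S6 (log2 change 4.22 ± 1.02 SE, edgeR adjusted p = 0.00375, higher in 4 of 4 pairs). Leaving out H1 S0 replicate 1 gave 5.28 and replicate 2 gave 3.58. In MEL1 alone the value was 3.48 and did not pass, and the ratio of 8 reads at S6 to 1 at S0 was 14.7 (95% counting interval 1.97 to 651). The line difference did not pass (-0.85 ± 4.71 SE, edgeR adjusted p = 0.919).

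The octamer factors POU2F1, which is widely expressed, and POU2F2, known best from B cells, both fell from S0 to S3. In H1, POU2F1 stood at 7.49 and 9.78 in S0, 6.5 and 5.15 in S3, 7.41 and 5.62 in S4, and 7.1 and 10.1 in S6. In MEL1, POU2F1 stood at 14.4 and 12.2 in S0, 4 and 3.16 in S3, 2.94 and 4.06 in S4, and 2.99 and 5.24 in S6. The S3 libraries lay below the S0 libraries in both lines. POU2F1 fell (log2 change -1.31 ± 0.36 SE, edgeR adjusted p = 0.0101, lower in 4 of 4 pairs), by more in MEL1 (-1.32 ± 0.57 SE, edgeR adjusted p = 0.0748), and the lines also differed from S0 to S6 (-1.68 ± 0.58 SE, edgeR adjusted p = 0.0349). H1 alone gave -0.58 and the fit without both MEL1 S3 input libraries -1.14, neither passing. H1 libraries held POU2F2 at 2.9 and 4.09 in S0, 0.394 and 1.24 in S3, 0.247 and 4.8 in S4, and 4.44 and 1.54 in S6. MEL1 libraries held POU2F2 at 2.47 and 3.92 in S0, 0 and 0 in S3, 0.42 and 0 in S4, and 1.87 and 1.21 in S6. MEL1 S3 held no input read and both H1 S3 libraries were below S0. POU2F2 fell (log2 change -3.23 ± 0.92 SE, edgeR adjusted p = 0.0117, lower in 4 of 4 pairs), or by -4.35 in log2 without H1 S3 replicate 2. Within MEL1 it was at least 8.91-fold lower at S3. H1 alone gave -2.10 and the fit without both MEL1 S3 input libraries -2.57, neither passing.

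SIX3, a forebrain and eye factor, had the widest fitted line difference among those that passed over the whole course. SIX3 measured, in H1, 14.5 and 11.6 in S0, 5.32 and 2.88 in S3, 1.98 and 4.66 in S4, and 4.08 and 5.51 in S6. In the other line, MEL1, SIX3 measured 0.411 and 0 in S0, 0.25 and 3.38 in S3, 28.2 and 25.4 in S4, and 23.2 and 31.1 in S6. H1 was highest at S0, whereas MEL1 was near 0 at S0 and high at S4 and S6, above every H1 library. The lines differed from S0 to S3 (4.64 ± 1.19 SE, edgeR adjusted p = 0.00414), from S3 to S4 (4.05 ± 0.84 SE, edgeR adjusted p = 0.00288) and from S0 to S6 (8.26 ± 0.99 SE, edgeR adjusted p = 3.27e-06). In MEL1 2 reads at S0 against 139 at S6 gave a ratio of 127 (95% counting interval 34.6 to 1063). The S3 difference rested on MEL1 S3 replicate 2 and was 1.87 without it, no longer passing. It was 7.68 without MEL1 S0 replicate 1, 3.77 without MEL1 S0 replicate 2 and 5.48 without MEL1 S3 replicate 1. The S6 difference was 11.29 without MEL1 S0 replicate 1 and 7.38 without replicate 2. SIX3 was not called over both lines in any of the 4 comparisons.

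SIX4, which acts in muscle and sensory placodes, fell at S3. In H1, SIX4 stood at 36.2 and 32.5 in S0, 11 and 14.8 in S3, 7.9 and 19.6 in S4, and 16.2 and 19.6 in S6. In MEL1, SIX4 stood at 40.3 and 37.4 in S0, 0.751 and 2.26 in S3, 4.2 and 4.43 in S4, and 18.3 and 16.9 in S6. Each S3 and each S6 library lay below each S0 library, with MEL1 S3 the lowest. SIX4 fell from S0 to S3 (log2 change -2.68 ± 0.55 SE, edgeR adjusted p = 0.00126, lower in 4 of 4 pairs), by more in MEL1 (-3.23 ± 0.58 SE, edgeR adjusted p = 0.000164). From S4 to S6 the change was higher in MEL1 (1.69 ± 0.56 SE, edgeR adjusted p = 0.0406). The fall from S0 to S6 (log2 change -1.10 ± 0.50 SE, edgeR adjusted p = 0.089, lower in 4 of 4 pairs) was lost without H1 S6 replicate 1 (-0.91) or replicate 2 (-0.98), or MEL1 S0 replicate 1 (-0.89) or replicate 2 (-0.94), and with a replicate block (-1.11). SIX5 ranged from 55.7 to 158 CPM. It was higher at S3 in all pairs, with a fitted change under 2-fold (log2 change 0.76 ± 0.20 SE, edgeR adjusted p = 0.00747, higher in 4 of 4 pairs). The lines differed in SIX5 from S0 to S3, from S4 to S6 and from S0 to S6 (1.2 ± 0.21 SE, edgeR adjusted p = 0.000238, for the last).

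LHX5, a LIM factor of forebrain and spinal cord, was not called over both lines. H1 libraries held LHX5 at 17.2 and 16.6 in S0, 4.34 and 4.12 in S3, 4.2 and 4.8 in S4, and 26.8 and 21.2 in S6. MEL1 libraries held LHX5 at 0 and 0 in S0, 0 and 0 in S3, 14.7 and 21 in S4, and 4.86 and 4.03 in S6. In MEL1 input LHX5 was at 0 at S0 and S3 and highest at S4, whereas in H1 it was highest at S6. The MEL1 S3 IP libraries held 24 and 15 LHX5 reads. Within MEL1 it was at least 50.8-fold higher at S4 than at S3 and at least 14.1-fold higher at S6 than at S0. The line difference passed from S3 to S4 (9.15 ± 1.02 SE, edgeR adjusted p = 6.32e-06), from S4 to S6 (-4.40 ± 0.54 SE, edgeR adjusted p = 1.15e-05) and from S0 to S6 (6.75 ± 1.13 SE, edgeR adjusted p = 0.000205). The first and the last of these values depend on the prior count.

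IRX genes, TALE factors that pattern neural tissue and heart, lie in clusters, and IRX1 and IRX2 are neighbours in one and IRX3 and IRX5 in another. IRX1 measured, in H1, 3.86 and 7.05 in S0, 8.08 and 7 in S3, 42.5 and 23.2 in S4, and 21.3 and 23.8 in S6. In the other line, MEL1, IRX1 measured 0.206 and 0 in S0, 0 and 0 in S3, 3.36 and 2.58 in S4, and 21.3 and 27.4 in S6. H1 was above MEL1 at S0, S3 and S4, while at S6 the lines overlapped. IRX1 rose from S0 to S6 (log2 change 4.31 ± 0.90 SE, edgeR adjusted p = 0.00126, higher in 4 of 4 pairs), or by 5.18 without H1 S6 replicate 1 and 5.17 without replicate 2. In MEL1 1 read at S0 against 125 at S6 gave a ratio of 229 (95% counting interval 40.4 to 9127). The lines differed from S3 to S4 (4.56 ± 1.56 SE, edgeR adjusted p = 0.0738), from S4 to S6 (3.56 ± 0.58 SE, edgeR adjusted p = 0.000206) and from S0 to S6 (5.46 ± 0.91 SE, edgeR adjusted p = 0.000166). The S0 to S6 difference was 7.66 without MEL1 S0 replicate 1 and 4.66 without replicate 2. Between S3 and S4 IRX1 in MEL1 was at least 8.28-fold higher.

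In H1, IRX3 stood at 11.1 and 10.7 in S0, 40.4 and 55.6 in S3, 140 and 108 in S4, and 49.9 and 48.5 in S6. In MEL1, IRX3 stood at 3.08 and 5.01 in S0, 1.25 and 0 in S3, 4.62 and 8.11 in S4, and 21.3 and 16.9 in S6. H1 was above MEL1 at every stage, and MEL1 was lowest at S3, where H1 was above its own S0. From S0 to S3 IRX3 went opposite ways in the lines (-4.83 ± 0.69 SE, edgeR adjusted p = 1.58e-05), a difference of -9.25 without MEL1 S3 replicate 1 and -3.80 without replicate 2. Differences passed too from S3 to S4 (2.01 ± 0.73 SE, edgeR adjusted p = 0.0925) and from S4 to S6 (2.90 ± 0.47 SE, edgeR adjusted p = 0.000161). IRX3 rose from S0 to S6 (log2 change 2.32 ± 0.74 SE, edgeR adjusted p = 0.02, higher in 4 of 4 pairs).

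H1 libraries held IRX5 at 2.66 and 0.909 in S0, 8.47 and 8.24 in S3, 18.8 and 26.6 in S4, and 15.1 and 10.4 in S6. MEL1 libraries held IRX5 at 0 and 0 in S0, 0 and 0.903 in S3, 0.42 and 0.738 in S4, and 3.73 and 7.66 in S6. H1 was above MEL1 at every stage, and MEL1 was at or near 0 until S6. IRX5 rose from S0 to S3 (log2 change 2.26 ± 0.83 SE, edgeR adjusted p = 0.0422, higher in 3 of 4 pairs), a call lost without H1 S0 replicate 2 (1.93), and with a value of 3.23 without H1 S0 replicate 1. It rose from S0 to S6 (log2 change 4.16 ± 0.85 SE, edgeR adjusted p = 0.00108, higher in 4 of 4 pairs). That value was 5.10 without H1 S0 replicate 1, 4.79 without H1 S6 replicate 1, 4.92 without H1 S6 replicate 2 and 3.57 without MEL1 S6 replicate 2. IRX5 was, from S4 to S6, higher in MEL1 and lower in H1 (4.04 ± 0.97 SE, edgeR adjusted p = 0.00585), or 3.38 without MEL1 S6 replicate 2. In MEL1 3 reads at S4 against 29 at S6 gave a ratio of 9.54 (95% counting interval 2.96 to 49). Over S0 to S6 the difference was 4.76 ± 1.72 SE, edgeR adjusted p = 0.0447, with IRX5 in MEL1 at least 17.7-fold higher at S6.

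IRX2 ranged from 0.751 to 94.8 CPM, the lowest value in MEL1 S3. It fell from S0 to S3 (log2 change -1.41 ± 0.57 SE, edgeR adjusted p = 0.063, lower in 4 of 4 pairs), a call lost without MEL1 S0 replicate 2 (-1.24), MEL1 S3 replicate 1 (-0.99) or MEL1 S3 replicate 2 (-1.32). H1 alone gave -0.76 and so under 2-fold, and the fit without both MEL1 S3 input libraries, chosen after seeing the data, -0.64. The fall was larger in MEL1 than in H1 (-1.86 ± 0.54 SE, edgeR adjusted p = 0.0101), and IRX2 also differed between the lines from S4 to S6 (2.61 ± 0.49 SE, edgeR adjusted p = 0.000687) and from S0 to S6 (1.59 ± 0.46 SE, edgeR adjusted p = 0.0124).

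PKNOX2, a TALE partner of HOX and PBX proteins, rose at S3 and stayed above S0. PKNOX2 measured, in H1, 5.56 and 4.32 in S0, 30.9 and 22.7 in S3, 38.5 and 49.1 in S4, and 27.9 and 24.7 in S6. In the other line, MEL1, PKNOX2 measured 1.23 and 3.26 in S0, 1.75 and 5.87 in S3, 20.6 and 12.5 in S4, and 7.47 and 4.84 in S6. H1 was above MEL1 at every stage, and in MEL1 S4 was the highest stage. PKNOX2 rose from S0 to S3 (log2 change 1.76 ± 0.42 SE, edgeR adjusted p = 0.004, higher in 4 of 4 pairs), by less in MEL1 (-1.65 ± 0.70 SE, edgeR adjusted p = 0.0682). MEL1 alone gave 0.73 at S3 and did not pass. It rose from S0 to S6 (log2 change 1.99 ± 0.43 SE, edgeR adjusted p = 0.00159, higher in 4 of 4 pairs). Its paralog PKNOX1 ranged from 4.12 to 11.3 CPM, PBX3 from 0.25 to 6.91 and PBX2 from 492 to 934, and none of these HOX partners was called in any comparison. TGIF2, a repressor in TGF-β and retinoid signalling, ranged from 84.5 to 224. From S0 to S3 it was higher in H1 and lower in MEL1 (-1.20 ± 0.20 SE, edgeR adjusted p = 8.61e-05), and it was not called over both lines. Line differences in TGIF2 also passed from S4 to S6 (1, edgeR adjusted p = 0.00171) and from S0 to S6 (-0.59, edgeR adjusted p = 0.0364). TGIF2-RAB5IF ranged from 35.9 to 101 and was lower at S6 in all pairs, with a fitted change under 2-fold (log2 change -0.89 ± 0.21 SE, edgeR adjusted p = 0.00298, lower in 4 of 4 pairs). TGIF2 and the readthrough share sequence, and how reads common to both were assigned is not given in the sources used here.

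ZEB1, a zinc-finger and homeodomain repressor of epithelial genes, was highest at S6. In H1, ZEB1 stood at 1.45 and 2.27 in S0, 2.76 and 5.97 in S3, 13.3 and 12.6 in S4, and 23.4 and 24 in S6. In MEL1, ZEB1 stood at 1.23 and 0.435 in S0, 0.5 and 3.61 in S3, 3.36 and 4.43 in S4, and 9.71 and 12.1 in S6. S6 was the highest stage in both lines, and every S6 library was above every S0 library. ZEB1 rose from S0 to S6 (log2 change 3.66 ± 0.46 SE, edgeR adjusted p = 1.85e-05, higher in 4 of 4 pairs). The call at S3 (log2 change 1.25 ± 0.48 SE, edgeR adjusted p = 0.0496, higher in 3 of 4 pairs) was lost without H1 S0 replicate 1 (1.09), H1 S3 replicate 2 (1.04), MEL1 S0 replicate 2 (1.08) or MEL1 S3 replicate 2 (0.81). Of the 7 mesenchymal markers with counts, with which ZEB1 is often seen, 3 rose from S0 to S6 (17.5% of all genes did) and 1 fell (13.8%). TWIST1 (log2 change 4.27), COL1A2 (3.5) and COL5A1 (2.5) rose, THY1 fell (-4.27), and COL1A1 (-0.32), PDGFRA (1.63) and PDGFRB (0.04) were not called. Their part in the rise of ZEB1 was not tested. ZEB1 overlaps an antisense gene that has its own peaks.

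ZHX1, a zinc-finger and homeobox repressor, rose at S3 and kept its level. H1 libraries held ZHX1 at 4.35 and 5 in S0, 18.5 and 19.6 in S3, 13.1 and 25 in S4, and 24.3 and 26 in S6. MEL1 libraries held ZHX1 at 12.5 and 8.27 in S0, 39.8 and 28.9 in S3, 39.9 and 28.8 in S4, and 44.1 and 38.7 in S6. All libraries from S3 to S6 were above all S0 libraries. It rose from S0 to S3 (log2 change 1.85 ± 0.24 SE, edgeR adjusted p = 2.99e-05, higher in 4 of 4 pairs) and from S0 to S6 (log2 change 2.19 ± 0.24 SE, edgeR adjusted p = 6.08e-06, higher in 4 of 4 pairs), and no line difference passed. ZHX1-C8orf76, a readthrough that shares sequence with ZHX1, ranged from 0.403 to 3.36 CPM. ZHX2 ranged from 49.8 to 107 and ZHX3 from 0.411 to 8.11. ADNP, a chromatin factor of neural development, ranged from 171 to 502 and its paralog ADNP2 from 31.1 to 133. None of these 5 genes was called in any comparison. ADNP differed between the lines from S0 to S3 (-1.28 ± 0.19 SE, edgeR adjusted p = 2.2e-05), being lower in MEL1 S3 than in MEL1 S0 and higher in H1 S3 than in H1 S0, and ADNP2 did too (-1.01 ± 0.25 SE, edgeR adjusted p = 0.00261). Line differences in ADNP and ADNP2 also passed from S4 to S6 and from S0 to S6. Those in ZHX2 passed from S0 to S3 and from S4 to S6.

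**Figure D3:**
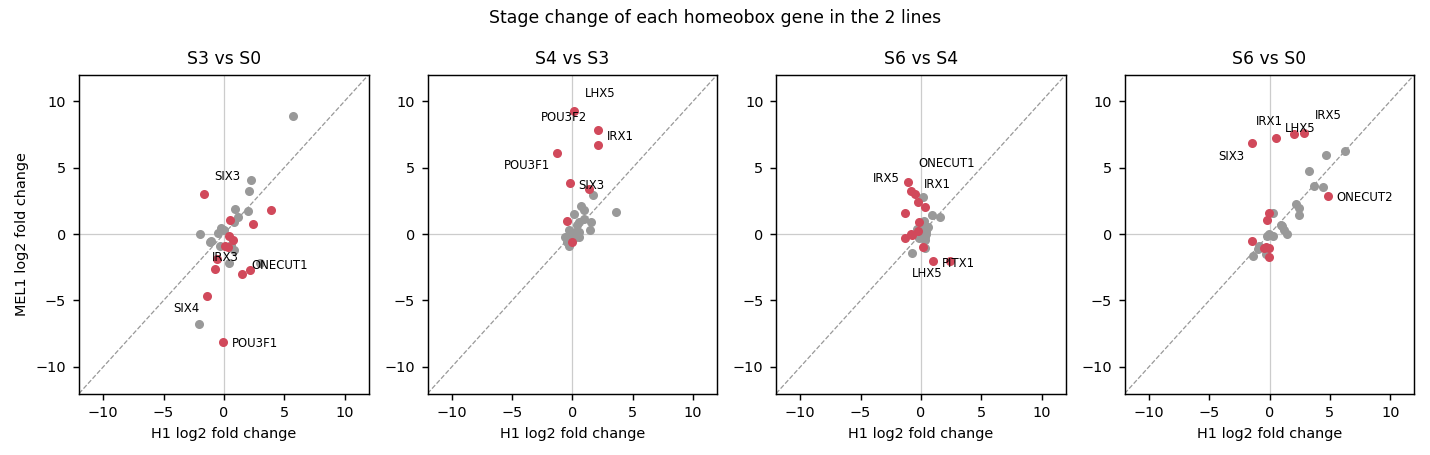
Log2 change of each of 33 homeobox genes in H1 (horizontal) and MEL1 (vertical) for each comparison, with genes that pass the test of the line difference in red, the 5 widest named and the dashed line marking equal change. Passing genes number 14, 8, 14 and 12 from left to right.

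In the TALE class 2 of 10 genes rose and 1 fell at S3, and 4 rose and 0 fell at S6. For the zinc-finger and other class 2 of 7 rose at each of these stages and none fell. Among all genes 15.0% rose and 13.8% fell at S3, and 17.5% and 13.8% at S6. The count of 0 falls in these classes was by edgeR over both lines. At S3 5 of the 36 homeobox genes were at 0 in both MEL1 input libraries, IRX1, LHX5, POU2F2, POU3F1 and POU3F2, beside 1.92% of all genes. At MEL1 S0 3 were (IRX5, LHX5 and PITX1), beside 1.34%, and 9 had at most 3 reads, beside 3.85%, and at MEL1 S4 and S6 none was at 0. In H1 none was at 0 in both libraries of S3, S4 or S6, and at S0 PITX1 was, beside 0.689%.

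Known regulators and cofactors of HOX genes were counted too. Of 29 listed genes 20 had counts, with 8 higher and 3 lower from S0 to S3, 1 and 0 from S3 to S4, 1 and 0 from there to S6, and 10 and 3 over the whole course. Over these comparisons 15.0%, 1.49%, 2.85% and 17.5% of all genes were higher and 13.8%, 0.351%, 2.33% and 13.8% lower. MEIS1, a TALE cofactor of HOX proteins, rose at S3 (log2 change 5.50 ± 0.39 SE, edgeR adjusted p = 5.89e-08) and again from S4 to S6 (1.19 ± 0.28 SE, edgeR adjusted p = 0.0234). MEIS2 rose at S3 (4.86 ± 0.49 SE, edgeR adjusted p = 2.18e-06), from 5.31 and 6.37 to 218 and 228 CPM in H1 and from 1.03 and 0.218 to 9.01 and 16.5 in MEL1. CDX2, an intestinal homeodomain factor upstream of HOX genes, rose too (5.58 ± 0.69 SE, edgeR adjusted p = 1.54e-05), by more in MEL1 (3.21, edgeR adjusted p = 0.0237). KDM6B, which removes the Polycomb mark, rose at S3 (3.26 ± 0.27 SE, edgeR adjusted p = 3.29e-07). Within Polycomb complexes PHC1 fell (-3.59 ± 0.24 SE, edgeR adjusted p = 3.56e-08) while PHC2 rose (3.58 ± 0.18 SE, edgeR adjusted p = 2.17e-09).

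Retinoic acid pathway genes had counts for 12 of 23, with TGIF2 a homeobox gene among them. From S0 to S3 5 rose and 0 fell (15.0% and 13.8% of all genes), and none was called in the next step (1.49% and 0.351%). From S4 to S6 0 rose and 1 fell (2.85% and 2.33%), and over the whole course 5 rose and 0 fell (17.5% and 13.8%). RARB, a receptor gene that retinoic acid induces, rose at S3 (5.90 ± 0.61 SE, edgeR adjusted p = 3.02e-06), to 30.5 and 33.2 CPM in H1 and 4.75 and 4.74 in MEL1. DHRS3, which reduces retinal, rose at S3 (2.66 ± 0.48 SE, edgeR adjusted p = 0.00051) and fell from S4 to S6 (-2.43 ± 0.50 SE, edgeR adjusted p = 0.0101). CRABP2, which carries retinoic acid to the nucleus, stood at 3670 and 3660 in H1 S3 and 19.8 and 23 in MEL1 S3. Its change from S0 differed between the lines (-6.31, edgeR adjusted p = 5.83e-14). Whether the pathway bears on the homeobox genes was not tested.

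Promoters of genes that rose over the course are shown for a look at what they share in sequence. RefSeq entries (GRCh38.p14) matched 22 of the 36 homeobox genes, and the 4 printed are those with the smallest adjusted p among the genes higher at S6 than at S0 that have an entry. Those without an entry included ADNP2, IRX3, IRX5, LHX5, PKNOX2, SIX3, SIX5, TGIF2-RAB5IF, ZHX1, ZHX1-C8orf76 and ZHX2. Each line gives the 250 bases before the start, on the + strand, for ONECUT2 (chr18:57435124-57435373), POU3F2 (chr6:98834324-98834573), ZEB1 (chr10:31318167-31318416) and IRX1 (chr5:3595582-3595831). Capitals mark matches on either strand to the 4 motifs searched. These were AGGTCA (nuclear receptor half-site), TAATTA (homeodomain core, its own reverse complement), CCAAT (bound by NF-Y) and GGGCGG (GC box), and no base lay in matches to more than 1 motif.
ONECUT2: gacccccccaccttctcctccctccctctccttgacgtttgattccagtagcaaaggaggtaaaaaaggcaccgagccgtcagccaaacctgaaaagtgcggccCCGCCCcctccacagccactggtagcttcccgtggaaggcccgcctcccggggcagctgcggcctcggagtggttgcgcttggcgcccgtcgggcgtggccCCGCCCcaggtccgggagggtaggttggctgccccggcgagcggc
POU3F2: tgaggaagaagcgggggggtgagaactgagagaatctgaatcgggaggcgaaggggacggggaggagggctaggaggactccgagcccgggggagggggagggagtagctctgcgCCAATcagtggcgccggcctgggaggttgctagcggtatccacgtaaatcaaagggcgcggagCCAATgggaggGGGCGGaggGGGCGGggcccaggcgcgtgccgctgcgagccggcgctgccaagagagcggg
ZEB1: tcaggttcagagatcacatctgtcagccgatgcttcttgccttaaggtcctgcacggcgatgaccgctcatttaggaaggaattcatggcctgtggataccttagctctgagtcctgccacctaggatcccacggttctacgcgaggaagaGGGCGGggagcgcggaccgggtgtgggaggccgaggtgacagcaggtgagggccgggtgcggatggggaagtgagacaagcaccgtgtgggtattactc
IRX1: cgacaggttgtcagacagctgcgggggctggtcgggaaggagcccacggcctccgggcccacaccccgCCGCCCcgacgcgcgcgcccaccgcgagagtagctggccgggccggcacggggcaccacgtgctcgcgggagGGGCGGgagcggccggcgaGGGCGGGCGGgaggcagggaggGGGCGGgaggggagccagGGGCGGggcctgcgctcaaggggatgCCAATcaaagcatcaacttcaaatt
AGGTCA and TAATTA had 0 matches in the windows of all 22 homeobox promoters, while 12.1% and 4.35% of 35116 promoters held them. CCAAT was found in 8 of the 22, beside 32% of all, and GGGCGG in 19 of the 22, beside 42.6%. IRX1 held 6 GC boxes and POU3F2 and ONECUT2 2 each, and the median base composition was 72.4% G and C over the 22 and 58% over all. A match is a description of letters and not of a site.

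Homeobox peaks lay above the median of all peaks in IP over input in 85 of 130 cases at S0, 86 at S3, 84 in S4 and 81 in S6. Their median log2 ratio, from the fit over all 32 libraries, was 1.11 in S0, 1.17 in S3, 0.57 in S4 and 0.80 in S6, beside 0.28, 0.07, -0.30 and -0.12 over all 26104. Peaks were called from these libraries' own IP signal, so a ratio above 0 is no finding. The ratio was above 0 at all 4 stages for 62 peaks of 30 genes and below 0 at all 4 stages for 26 peaks of 10 genes. PBX2 alone held 8 of those below and ADNP 5. The same counts were not made over all peaks, so they are no trait of the homeobox peaks. With IP libraries thinned to the shallowest the S0 median was 0.80, and in MEL1 alone it was 0.70. Of the 30 homeobox genes with several peaks 25 had over 50% of their IP reads in a single peak, beside 81.5% of all genes with several peaks, and the median share of the largest peak was 72.4%, beside 69.9% over the 5640 such genes in the table.

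**Figure D4:**
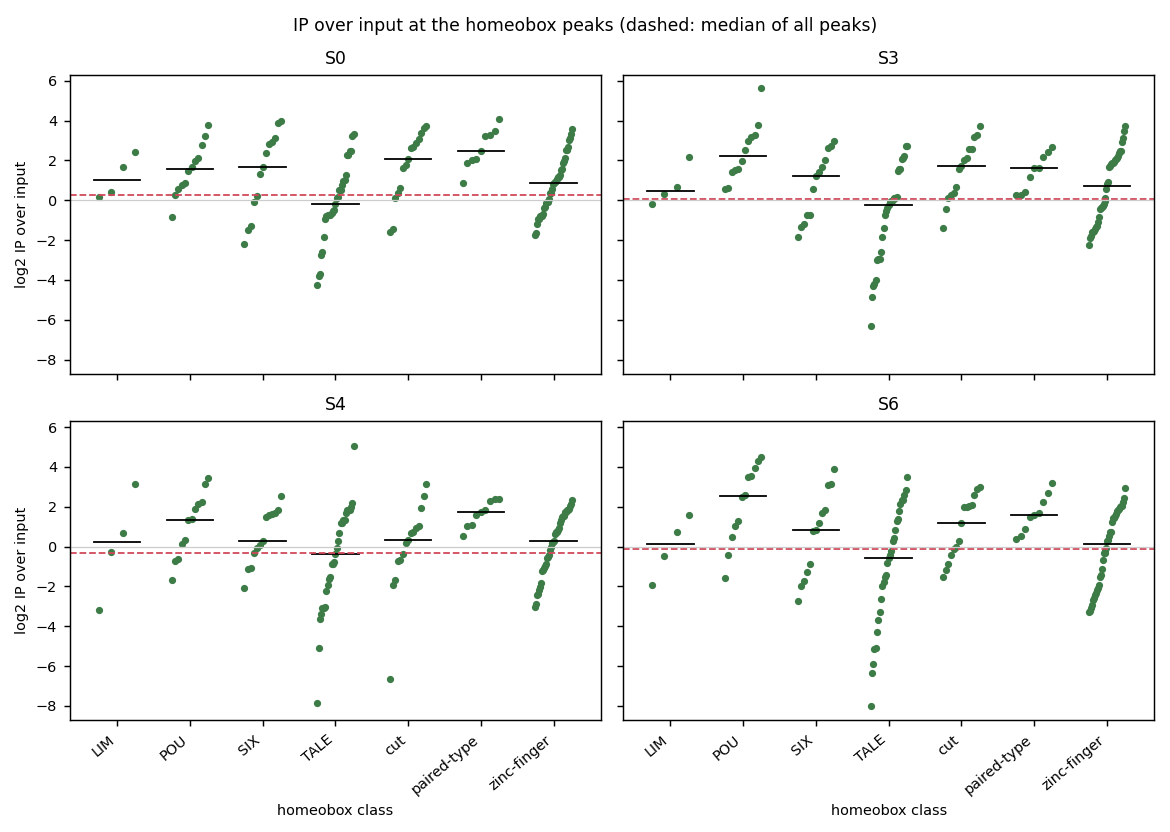
Log2 of IP over input at 120 homeobox peaks by class and stage, with a black bar for the class median and a dashed red line for the median of all 26104 peaks. The dashed line lies at 0.28, 0.07, -0.30 and -0.12 from S0 to S6.

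Within a class, the peak with the most IP reads is described. That number also follows how abundant the transcript is, so it does not measure the mark. PBX2 at 945 held 75676 IP reads, and its log2 IP over input was -0.8, -0.53, -0.78 and -0.56 from S0 to S6. Positions are bases along the gene's transcript model as the deposited names give them. ADNP held the largest, at position 2124 with 163177 IP reads over all libraries, and its log2 IP over input was 2.12 ± 0.32 SE in S0, 2.05 ± 0.32 in S3, 1.87 ± 0.32 in S4 and 1.78 ± 0.31 in S6. TGIF2 at 801 (111907 IP reads) stood at 2.29 ± 0.28 SE, 2.73 ± 0.29, 1.83 ± 0.28 and 2.82 ± 0.29 at these stages. For both peaks all stages lay well above 0 and no stage comparison passed. POU3F2 at 1401 (54365 IP reads) stood at 2.78 ± 1.16 SE, 3.17 ± 0.89, 3.16 ± 0.84 and 3.56 ± 0.87. It passed in no comparison.

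SIX5 at 3307 (36609 IP reads) stood at 1.69 ± 0.62 SE, 1.42 ± 0.60, 2.54 ± 0.64 and 0.84 ± 0.60 from S0 to S6. The preparations split by line, with H1 S4 at 3.63 and 3.15 and MEL1 S4 at 0.31 and 0.39 in log2 IP over input with 1 count added. ONECUT2 at 2851 (24178 IP reads) stood at 1.77 ± 0.44 SE, 2.57 ± 0.43, 0.95 ± 0.42 and 1.99 ± 0.42. LHX5 at 626 (829 IP reads) stood at 0.41 ± 1.16 SE, 0.69 ± 1.36, 0.67 ± 1.18 and -0.48 ± 1.18. None of these 3 peaks passed in any comparison, and the errors of LHX5 leave room for large changes either way.

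From S0 to S3, 0 of the 130 homeobox peaks changed in IP over input, beside 0.0498% of all 26104 peaks called by edgeR. At an unadjusted p under 0.05 there were 5, beside 6.19% of all peaks, and DESeq2 called 0, beside 0.64%. A median log2 change of -0.24 stood beside -0.20 over all peaks. Within H1 alone 8 homeobox peaks passed, beside 6.09% of all peaks, and within MEL1 alone 8, beside 8.8%.

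From S3 to S4, 7 of the 130 peaks passed, 1 higher and 6 lower, beside 6.60% of all peaks. The median log2 change was -0.49, and -0.36 over all peaks, with 21 homeobox peaks at an unadjusted p under 0.05, beside 18.3% of all. Among all peaks 196 passed as higher and 1528 as lower. That lean depended on the fit, with 4.11% higher and 3.63% lower by DESeq2. It was 1.05% and 1.28% with RLE size factors, and 0.85% and 1.92% with TMM within each library type. H1 alone gave 63 homeobox peaks (46.2% of all peaks) and MEL1 alone 12 (12.7%). Without both MEL1 S4 preparations, left out after seeing the data, 25 passed (20.9% of all). Leaving out single preparations gave 2 without H1 S4 replicate 1 (0.927% of all peaks), 2 without H1 S4 replicate 2 (4.06%) and 12 without MEL1 S4 replicate 1 (10.1%). It gave 4 without H1 S3 replicate 1 (3.32%), H1 S3 replicate 2 (3%) or MEL1 S3 replicate 2 (2.74%). RLE size factors gave 4 (2.33%) and TMM within each library type 4 (2.77%).

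From S4 to S6, 8 of the 130 peaks passed, 5 higher and 3 lower, beside 7.58% of all peaks. Among all peaks 1387 passed as higher and 591 as lower. DESeq2 turned that lean, with 4.99% higher and 8.22% lower, as did RLE size factors with 2.8% and 3.61%. Homeobox peaks had a median log2 change of 0.21, and 0.19 over all peaks, with 22 homeobox peaks at an unadjusted p under 0.05, beside 20.2% of all. DESeq2 called 14 (13.2% of all peaks), H1 alone gave 59 (41.6% of all peaks), MEL1 alone 14 (11.5%), and 20 passed without both MEL1 S4 preparations (19.2% of all). The count was 4 without H1 S4 replicate 2 (5.6% of all), and 5 without H1 S6 replicate 1 (3.31%) or MEL1 S6 replicate 1 (3.81%). From S0 to S6 2 of the 130 peaks passed, both lower, beside 1.26% of all peaks, and the median log2 change was -0.59, and -0.35 over all peaks. This count was 5 by DESeq2 (6.03% of all peaks), 4 with thinned IP libraries (2.11%) and 1 with RLE size factors (0.341%), and 0 with TMM within each library type (0.249%) or with a mean of 10 reads required (0.396%). It was 0 as well without any of H1 S6 replicate 1 or 2, MEL1 S0 replicate 1 or 2, or MEL1 S6 replicate 1 or 2, where 0.0153% to 0.207% of all peaks passed. H1 alone gave 23 (10.8% of all peaks) and MEL1 alone 11 (10.9%). A replicate block left 0 (0.28%).

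**Figure D5:**
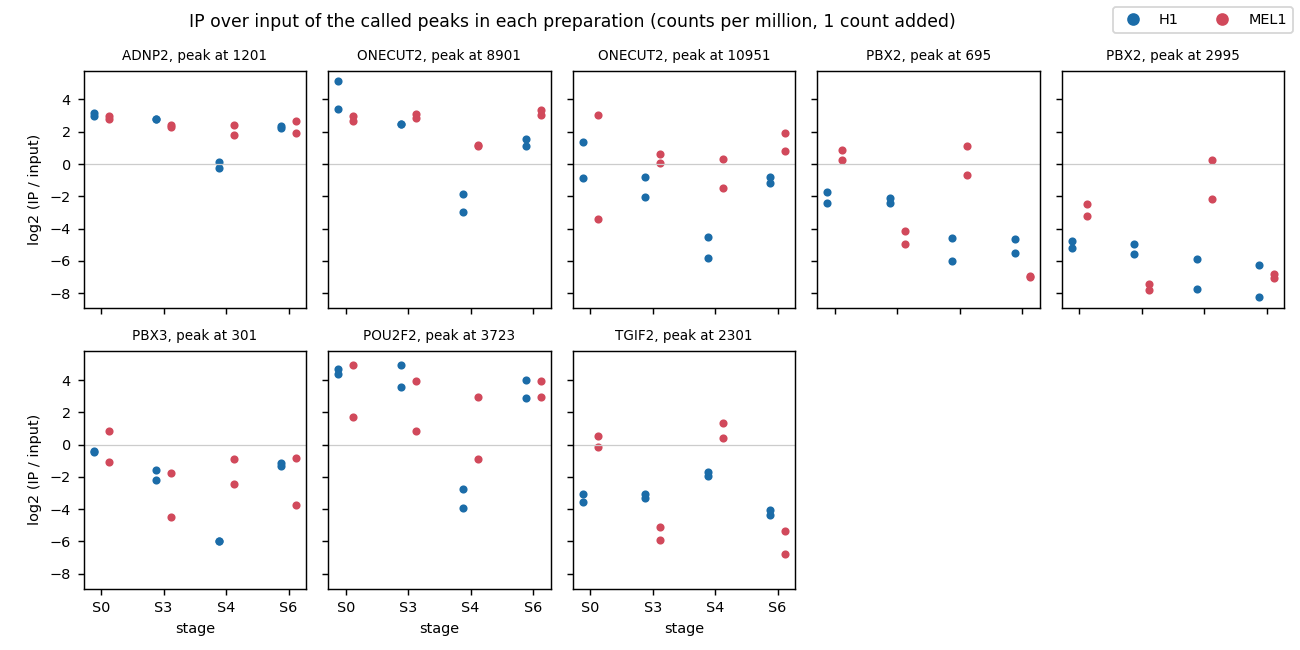
Log2 of IP over input (CPM, 1 count added) in each of the 16 preparations for 8 homeobox peaks that passed in any comparison, by stage, with H1 in blue and MEL1 in red. In the H1 S4 preparations the ADNP2 peak stands at 0.15 and -0.24 against 2.81 and 2.79 in H1 S3.

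Peaks that passed in any comparison numbered 9, and 8 of them lay in 6 genes, ADNP2, ONECUT2, PBX2, PBX3, POU2F2 and TGIF2. In the fit TGIF2 at 2301, PBX2 at 695 and 2995 and PBX3 at 301 were below 0 in log2 IP over input at every stage. Their changes are thus changes below the input level, where IP enrichment was not seen. Of the 8 peaks, ADNP2 at 1201 had the most reads. Its log2 IP over input in H1 was 3.17 and 3.0 in S0, 2.81 and 2.79 in S3, 0.15 and -0.24 in S4, and 2.34 and 2.22 in S6, and in MEL1 2.97 and 2.82 in S0, 2.28 and 2.42 in S3, 2.44 and 1.78 in S4, and 2.66 and 1.92 in S6. The H1 S4 preparations were low, whereas those of MEL1 S4 were close to MEL1 S3 and S6. The peak passed as lower from S3 to S4 (log2 change in IP over input -1.86 ± 0.39 SE, edgeR adjusted p = 0.00933) and higher from S4 to S6 (log2 change in IP over input 1.42 ± 0.39 SE, edgeR adjusted p = 0.0392). MEL1 alone gave -0.98 and 0.48, neither passing, and without both MEL1 S4 preparations the values were -2.34 and 1.91, both passing. The earlier call was lost without H1 S4 replicate 1 (-1.3) and the later one without H1 S4 replicate 1 (1.13) or replicate 2 (1.11), or H1 S6 replicate 1 (1.3) or replicate 2 (1.32). With RLE size factors the later value was 1.06 and did not pass.

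ONECUT2 at 8901 was low at S4 as well. In H1 it was 3.41 and 5.12 in S0, 2.5 and 2.49 in S3, -2.96 and -1.89 in S4, and 1.52 and 1.12 in S6, and in MEL1 2.99 and 2.64 in S0, 3.1 and 2.87 in S3, 1.15 and 1.1 in S4, and 3.37 and 3.03 in S6. S4 was lowest in both lines, and most so in H1. It passed as lower from S3 to S4 (log2 change in IP over input -3.28 ± 0.73 SE, edgeR adjusted p = 0.0146) and higher from S4 to S6 (log2 change in IP over input 2.72 ± 0.72 SE, edgeR adjusted p = 0.0328). The earlier call was lost without H1 S4 replicate 1 (-2.46), and the later one without H1 S4 replicate 2 (2.27) or MEL1 S6 replicate 1 (2.43). Without both MEL1 S4 preparations they passed at -4.51 and 3.97. ONECUT2 at 10951 had 0 IP reads in all 4 S4 preparations, beside 17 and 11 in H1 S3 and 31 and 29 in MEL1 S3. Its calls, lower at S4 (edgeR adjusted p = 0.0468) and higher at S6 (edgeR adjusted p = 0.0326), thus rest on S4 libraries at 0 and their fitted values depend on the prior count. They were lost at S4 without H1 S4 replicate 1 (-6.07), H1 S4 replicate 2 (-5.32) or MEL1 S3 replicate 2 (-5.79), and at S6 without H1 S4 replicate 2 (5.79). Without both MEL1 S4 preparations they passed at -6.89 and 7.36, and blocked by RNA preparation the S4 call was lost (-6.4).

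POU2F2 at 3723 had 66 and 92 IP reads in H1 S3, 0 and 3 in H1 S4 and 251 and 343 in H1 S6. In MEL1 it had 5 and 49, 0 and 5 and 109 and 81 at these stages. As CPM of each IP library's total, POU2F2 at 3723 had 0 and 0.214 in H1 S4 against 4.8 and 6.4 in H1 S3. In MEL1 S4 it had 0 and 2.1 against 0.362 and 3.56 in MEL1 S3, so replicate 2 of S4 lay within the S3 range. The peak passed from S3 to S4 (log2 change in IP over input -7.32 ± 1.68 SE, edgeR adjusted p = 0.0163) and from S4 to S6 (log2 change in IP over input 5.16 ± 1.38 SE, edgeR adjusted p = 0.0344). Single preparations moved the former between -9.61 and -4.80 and the latter between 2.65 and 7.42. Without H1 S4 replicate 2 both calls were lost, at -4.80 and 2.65, and the S6 call also without H1 S6 replicate 2 (4.82). The extremes of -9.61 and 7.42 came without MEL1 S4 replicate 2. Without H1 S3 replicate 1 the S4 value was -9.37, without H1 S3 replicate 2 -6.67, and without H1 S4 replicate 1 the values were -6.46 and 4.55. MEL1 alone gave -5.24 and 1.83, neither passing, and without both MEL1 S4 preparations the values were -9.66 and 7.47, both passing.

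PBX3 at 301 had 0 IP reads in all 4 S4 preparations and at most 38 in any library. MEL1 held few at other stages too, with 1 and 0 at S3 and 13 and 0 at S6. It passed from S3 to S4 (edgeR adjusted p = 0.0538) and from S4 to S6 (edgeR adjusted p = 0.0215), with fitted values of -5.28 and 6.36 that depend on the prior count. The S4 call was lost without any single H1 preparation of S3 or S4, with values of -5.08 and -4.96 without H1 S3 replicates 1 and 2 and -5.01 and -5.13 without H1 S4 replicates 1 and 2. It was lost too when blocked by RNA preparation (-5.17), and with IP libraries thinned to the shallowest it was -0.34. Leaving out both MEL1 S4 preparations gave -5.64 and 6.71, both passing. Under this peak at most 31 input reads lay in any library.

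TGIF2 at 2301 and the PBX2 peaks at 695 and 2995 were fitted higher at S0 and S4 than at S3 and S6. So were peaks that were not called, such as ADNP at 2024 (log2 IP over input 1.08, -0.21, 0.81 and -3.28 from S0 to S6). TGIF2 at 2301 was, in H1, -3.58 and -3.07 in S0, -3.31 and -3.09 in S3, -1.7 and -1.98 in S4, and -4.38 and -4.06 in S6, and in MEL1 -0.13 and 0.5 in S0, -5.1 and -5.9 in S3, 0.38 and 1.34 in S4, and -6.77 and -5.39 in S6. In MEL1 S0 and S4 lay far above S3 and S6, while in H1 S4 lay above the other stages. It passed as higher from S3 to S4 (log2 change in IP over input 3.12 ± 1.04 SE, edgeR adjusted p = 0.0903), lower from S4 to S6 (log2 change in IP over input -4.21 ± 1.11 SE, edgeR adjusted p = 0.0318) and lower from S0 to S6 (log2 change in IP over input -4.17 ± 1.11 SE, edgeR adjusted p = 0.0877). The S4 call was lost when any of its 8 preparations was left out, with values from 2.74 without MEL1 S4 replicate 2 to 3.89 without H1 S4 replicate 1. It was lost as well with a replicate block (3.11) and without both MEL1 S4 preparations (2.37). Between S4 and S6 the value was -4.82 without H1 S6 replicate 2 and -3.45, still passing, without both MEL1 S4 preparations. The call from S0 to S6 was lost when any of 6 preparations was left out, H1 S6 replicate 1 (-4.44) or 2 (-4.78), MEL1 S0 replicate 1 (-4.21) or 2 (-3.31), or MEL1 S6 replicate 1 (-3.71) or 2 (-3.87), and with a replicate block (-4.13), and H1 alone gave -0.76.

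PBX2 at 695 was, in H1, -1.76 and -2.4 in S0, -2.39 and -2.08 in S3, -6.04 and -4.59 in S4, and -5.5 and -4.67 in S6, and in MEL1 0.22 and 0.88 in S0, -4.99 and -4.13 in S3, -0.69 and 1.09 in S4, and -7.02 and -6.96 in S6. MEL1 S0 and S4 lay above the rest, and both MEL1 S6 preparations had 0 IP reads. It passed as lower from S4 to S6 (log2 change in IP over input -3.98 ± 1.26 SE, edgeR adjusted p = 0.0696) and from S0 to S6 (log2 change in IP over input -5.15 ± 1.22 SE, edgeR adjusted p = 0.0658). The former call was lost without H1 S6 replicate 1 (-4.09), MEL1 S4 replicate 1 (-3.83) or 2 (-2.34), or MEL1 S6 replicate 1 (-3.58) or 2 (-3.57), and stood at -5.07 and -4.60 without H1 S4 replicate 1 and 2 and -4.84 without H1 S6 replicate 2. H1 alone gave -0.16 and the fit without both MEL1 S4 preparations -0.90, neither passing. The call from S0 to S6 was lost without H1 S6 replicate 1 (-5.26) or 2 (-6.02), MEL1 S0 replicate 1 (-5.13) or 2 (-4.52), or MEL1 S6 replicate 1 (-4.78) or 2 (-4.76). With a replicate block both calls were lost, at -3.87 and -5.08. PBX2 at 2995 had at most 26 IP reads in any library and at S6 0 and 3 in H1 and 0 and 0 in MEL1. It passed from S4 to S6 (edgeR adjusted p = 0.0392), with a fitted value of -4.94 that depends on the prior count. That call was lost without H1 S6 replicate 1 (-4.49), MEL1 S6 replicate 1 (-4.65) or MEL1 S4 replicate 2 (-3.08), and its value was -5.98, -5.54 and -7.11 without H1 S4 replicate 1, H1 S4 replicate 2 and H1 S6 replicate 2. H1 alone gave -0.93, the fit without both MEL1 S4 preparations -1.43 and that blocked by RNA preparation -4.05, none passing. Whether IP over input changed differently in the lines was not tested.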

How the data were processed

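Homeobox genes and context lists were chosen with earlier results of these data known. In the deposited table each value is a raw count of reads, by the authors, for a merged peak in a library, made from 50-bp windows along genes of Ensembl version 94. Aligner, genome build and peak settings are not given in the sources used here. The plan had been to use counts per gene, so a gene's input count is the sum over its peaks.

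Input counts were fitted with edgeR 4.0.16 in R 4.3.3 (TMM, quasi-likelihood, stage and cell line), and line differences with a separate mean per line and stage. IP over input was tested per peak over 32 libraries, as a change of IP against input between stages (an interaction term). Genes and peaks with a total under 10 were left out, leaving 7973 genes and 26104 peaks, with Benjamini-Hochberg adjustment over each. A call needed an adjusted p under 0.1 and a 2-fold change, and line differences the adjusted p alone. Sums of 0 were set against a floor of 3 counts over the group, and intervals for ratios are exact binomial (Clopper-Pearson) at 95%. Intervals and floors cover counting error only. The tests were tested on simulated data, with no result given here.

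Values in every library are given for homeobox genes called in a comparison, up to the 12 smallest adjusted p in each, and for up to 3 per comparison with the largest passing line difference. For m6A these are the called peaks, up to 8 per comparison, and the peak with the most IP reads per class. Other genes are given by range and counts, and 3 of the 36 count in the totals and are not reported here. Alternatives were DESeq2 1.42.0, RLE size factors, TMM within library types, other filters, no cell line term, replicate blocks, thinned IP libraries, each line alone, and each library left out. Tables and plots used Python 3.11.15, pandas 2.3.3, scipy 1.17.1 and matplotlib 3.10.9, and limma 3.58.1 served edgeR.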

Additional observations from a re-analysis of the deposited data

Results flagged for a closer look

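In the homeobox genes below the stage change differed between MEL1 and H1 by edgeR's test of the difference. They come from genes chosen partly for a wide difference, so their number is no share of homeobox genes. Of all genes 45.9%, 14.1%, 23.1% and 36.3% passed in the comparisons as ordered here. Values are MEL1 change minus H1 change in log2. From S0 to S3 they were IRX3 (-4.83), ONECUT1 (-4.55), ONECUT2 (-2.08), PKNOX2 (-1.65), POU2F1 (-1.32), POU3F1 (-8.01), SIX3 (4.64) and SIX4 (-3.23). From S3 to S4 they were IRX1 (4.56), IRX3 (2.01), LHX5 (9.15), POU3F1 (7.33), POU3F2 (5.69) and SIX3 (4.05). From S4 to S6 they were IRX1 (3.56), IRX3 (2.90), IRX5 (4.04), LHX5 (-4.40), ONECUT1 (5.03), PITX1 (-3.04) and SIX4 (1.69). From S0 to S6 they were IRX1 (5.46), IRX5 (4.76), LHX5 (6.75), ONECUT2 (-1.94), POU2F1 (-1.68) and SIX3 (8.26). Where a line had no input read at a stage (IRX1, LHX5, POU3F1 and POU3F2 in MEL1 S3, and IRX5 and LHX5 in MEL1 S0), the value depends on the prior count. The cause was not tested.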

How the results depend on the processing

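Of 1010 alternatives to values of named homeobox genes and peaks, 857 kept direction and side of the threshold, 152 kept the direction but no longer passed, and 1 reversed, POU3F2 from S0 to S3 in MEL1 alone (-2.01). Of 197 alternatives to counts and medians 147 stayed within 1.5 times or within the replicate spread. The counts called in input from S0 to S3 (14) and S0 to S6 (16) and all counts of line differences but the one named below were among these.

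In input, the count from S3 to S4 (1) became 7 with DESeq2, 0 without the cell line, 6 with the 8 libraries compared, 8 in H1 and 10 in MEL1, where 3.73%, 0.351%, 4.19%, 7.42% and 9.61% of all genes were called. That from S4 to S6 (2) became 5, 0, 4, 6 and 10, beside 7.21%, 1.87%, 6.9%, 9.36% and 15.8%. In IP over input, H1 alone and MEL1 alone gave 8 and 8 from S0 to S3 (0), 63 and 12 from S3 to S4 (7), 59 and 14 from S4 to S6 (8), and 23 and 11 from S0 to S6 (2). DESeq2 gave 14 from S4 to S6 and 5 from S0 to S6. RLE size factors gave 4 from S3 to S4 and 1 from S0 to S6, and TMM within library types 4 and 0. From S0 to S6 thinned IP libraries gave 4 and a mean of 10 reads 0. Without both MEL1 S4 preparations, chosen after seeing the data, 25 passed from S3 to S4 and 20 from S4 to S6. The median IP over input at S0 (1.11) was 0.80 thinned and 0.70 in MEL1. The cause was not tested.

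With a replicate block the input counts were 14, 1, 2 and 14, beside 28.1%, 1.17%, 4.23% and 30.8% of all genes. Those of line differences were 18, 9, 16 and 12, beside 48.2%, 17.5%, 26.4% and 39.6%. Counts of IP over input were 0, 5, 7 and 0, beside 0.0383%, 5.13%, 5.76% and 0.28% of all peaks. Blocked by RNA preparation, the last was 0, beside 0.18%. Correlations of replicate differences between stages ran from -0.01 to 0.05 in H1 and from 0.07 to 0.13 in MEL1, where all were above 0.

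With single libraries left out, the input count ranged from 1 to 4 from S3 to S4, beside 0.916% to 2.43% of all genes. For IP over input the count ranged from 2 to 12 (S3 to S4), 4 to 10 (S4 to S6) and 0 to 2 (S0 to S6). Beside these, 0.927% to 10.1%, 3.31% to 10.3% and 0.0153% to 1.46% of all peaks passed. The count of line differences from S3 to S4 moved as well, as did the share of all genes that passed. Where that left 1 library in a group, the lone library was assumed to vary like the others.

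Depth limits peaks with few reads, and 2 replicates per line and stage limit each line alone. Homeobox genes that hold no peak were not analysed here, and those outside the families taken count in none of the homeobox totals.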
